A study of Mus musculus with 8 samples.

Results

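The Ras, Raf, Mek and Erk core genes described here are Hras, Nras, Araf, Braf, Map2k1, Map2k2 and Mapk3, 7 of the 53801 genes in the deposited count table. They were chosen by symbol as members of the cascade, and each was matched through its Ensembl identifier. The remaining Ras, Raf and Erk paralogs of the cascade were not analysed here. The RNA came from Paneth cells of the mouse small intestine, sorted as viable EpCAM+ Cd24+ epithelial cells, with 300 cells per sample. Libraries were made by Smart-seq2, in which poly(A) RNA is reverse transcribed and the whole cDNA is amplified by PCR.

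The 4 controls were β-cat GOF; Mll1+/- mice and the 4 knockouts were β-cat GOF; Mll1-/- mice, with each library described as a separate mouse. The names of control 4 and knockout 4 share an animal number all the same. Both groups thus carried the gain-of-function allele of β-catenin, in which Cre removes exon 3, and the Lgr5-EGFP-IRES-CreERT2 driver. The controls lost 1 allele of Mll1 and the knockouts lost both, so no wild-type group was included. Tamoxifen, 1 mg on 3 consecutive days, was given to mice of 4 to 6 weeks of age, and cells were sorted 10 d after induction. The methods paragraph on sorting names the Mll1 alleles and not the β-catenin allele, which is taken here from the study's other descriptions of these samples. Cre under the Lgr5 promoter acts in crypt stem cells, and the study describes a mosaic of recombined and non-recombined crypts with this driver. The sort as described used no marker of recombination. By staining for the protein, the study reports that crypt cells of knockout mice, Paneth cells included, lacked Mll1 at the time of sorting. The counts here do not measure recombination, and the share of non-recombined cells in each sample was not tested. The study used mice of both sexes, without giving the sex of each sequenced mouse.

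In this cascade, active Ras, a small GTPase held at the membrane by a lipid tail, recruits Raf kinases. Raf phosphorylates Mek, Mek phosphorylates Erk, and Erk phosphorylates kinases and transcription factors such as the Ets family. In intestinal crypts, Egf receptor signalling through this route supports stem cell proliferation, and inhibition of Mek has been linked to secretory differentiation. For goblet cells, a secretory type, earlier work of the study's authors reported the other direction. There Mapk signalling held back Paneth cell maturation and favoured goblet cell fate. Mll1, encoded by Kmt2a, methylates histone H3 at lysine 4 and recognises unmethylated CpG through its CXXC domain. The study measured Mapk activity in tissue through the phosphorylated form of Erk, and reported more of it in β-cat GOF; Mll1-/- crypts. The counts here measure RNA and give no information on phosphorylation. The comparison asks whether RNA of the core genes differed between the genotypes.

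Total counts per library lay between 13037832 and 14380240. The library of knockout 3 stood apart, with 19662 genes detected against 22623 to 26074 in the other 7, and its 50 most abundant genes held 88.07% of its counts. Values are given below as counts or as normalized CPM, in which a gene's count is divided by the library total and by a TMM factor that balances composition between libraries. The factor of knockout 3 was 0.6316, against 0.8213 to 1.337 in the others, so its normalized values depend on this scaling more than others do. Summed Paneth marker RNA reached from 265400 to 546700 normalized CPM in controls and from 260000 to 728400 in knockouts, with knockout 3 the highest. Summed stem cell markers ranged from 705 to 1524 in controls and from 274 to 955 in knockouts, and summed enterocyte markers from 143 to 326 and from 89.7 to 236, with knockout 3 the lowest in both. Goblet markers ranged from 9291 to 17800 in controls and from 7895 to 19040 in knockouts, enteroendocrine markers from 139 to 634 and from 18.6 to 180, tuft markers from 119 to 340 and from 64.4 to 227, and proliferation markers from 58.7 to 145 and from 78.4 to 220.4. Immune markers were at most 13.5 and stromal markers at most 7.54 normalized CPM. Markers of the intended cell type were thus the most abundant list in every library, with goblet markers next, and the part of the other markers in the results below was not tested. The targeted gene Kmt2a had 22.5 to 45.2 normalized CPM in controls and 25.7 to 38.6 in knockouts (log2 fold change -0.06, SE 0.242, edgeR adjusted p = 0.995). Controls 1 and 2 had 45.2 and 37.3, above the 31.2 and 25.7 of knockouts 1 and 2. Controls 3 and 4 had 24.1 and 22.5, below the 38.6 and 28.5 of knockouts 3 and 4. The Kmt2a count sums all exons and does not show the deleted part.

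None of the 7 genes was called different between the genotypes, and every gene was detected in all 8 libraries, with 47 to 614 counts. All 7 passed the filter on low counts. Calls were made with edgeR's quasi-likelihood test over 13439 genes and needed both an adjusted p up to 0.05 and a size of the log2 fold change from 0.5 upwards. That test called 0 of 7 members, against 0.186% of all genes tested, and 0 of 7 had an unadjusted p under 0.05, against 6.88%. DESeq2 called 0 of 7, against 1.03% of all genes tested, and limma-voom, run with sample quality weights that let a library count for less, 0 of 7, against 0.752%. Nras and Map2k1 had higher means in the knockouts and the other 5 had lower means. The log2 fold changes ran from -0.24 for Araf to 0.30 for Map2k1, with a median of -0.08 beside 0.01 for all genes tested. The 95% interval of the fold change included equality for all 7 genes and a 2-fold difference in either direction for none, with bounds between 0.589-fold and 1.70-fold. The groups overlapped in normalized CPM for all 7 genes, where 4.52% of all genes tested did not overlap. In RNA of sorted populations, fewer cells with a transcript and less of it per cell cannot be told apart.

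**Figure D1:**
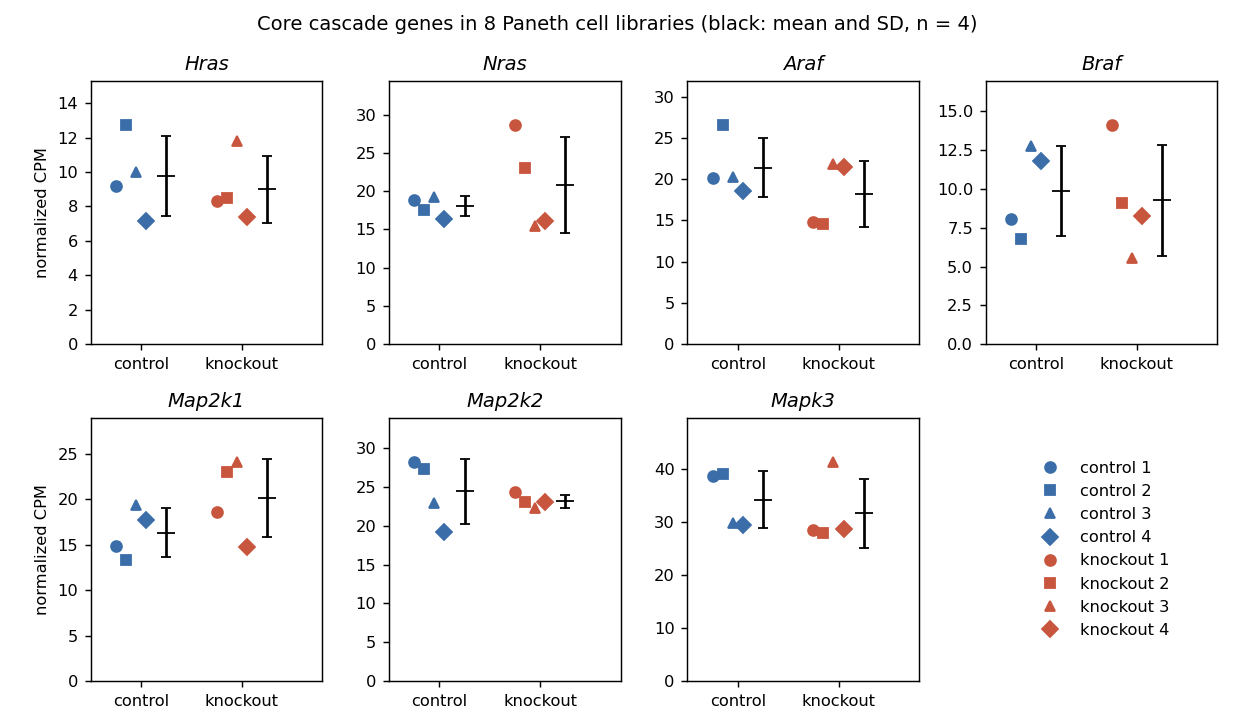
Normalized CPM of the 7 core genes in each library, controls (blue) beside knockouts (red), with the mean and SD of each group (n = 4) in black. Control and knockout points overlap in every gene, and for Mapk3 the point of knockout 3 (41.4) lies far above the other knockouts (27.9 to 28.7).

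**Figure D2:**
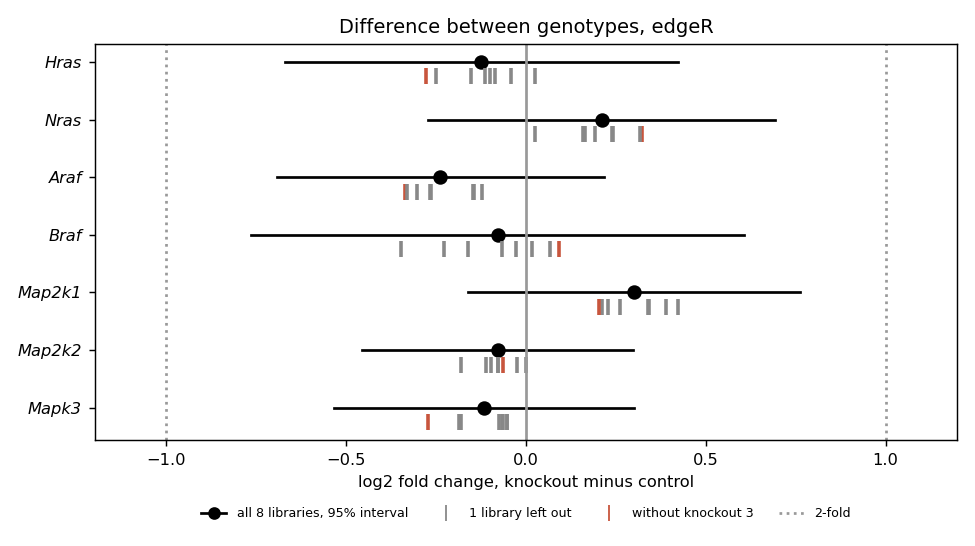
Log2 fold change of knockouts over controls for each core gene in edgeR, with the 95% interval as a line and the values with 1 library left out as ticks (red without knockout 3). Each interval crosses 0 and none reaches the dotted lines of a 2-fold difference.

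The upstream sequences of the Raf pair are shown first, because their count ratio varied most between libraries of the 3 paralog pairs. Their stretches also differ in CpG content, as do those of Hras (24 CpG) and Nras (14 CpG). Mll1 recognises unmethylated CpG, and any link between CpG content and these counts was not tested. The Araf and Braf stretches are the 250 bases before the transcription start that RefSeq gives in GRCm38.p6, and hold no annotated exon. For Araf this start lies inside the Ensembl gene span given with its values, downstream of the first base of that span. Letters run 5′ to 3′ on the strand of the gene, and capitals mark CpG. Araf lies on the plus strand, chrX:20848293-20848542, and Braf on the minus strand, chr6:39725464-39725713.
Araf: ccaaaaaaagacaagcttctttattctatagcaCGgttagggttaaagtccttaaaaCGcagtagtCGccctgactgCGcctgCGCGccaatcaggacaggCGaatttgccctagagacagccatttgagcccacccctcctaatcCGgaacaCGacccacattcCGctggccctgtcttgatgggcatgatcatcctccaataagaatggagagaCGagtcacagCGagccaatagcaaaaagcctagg
Braf: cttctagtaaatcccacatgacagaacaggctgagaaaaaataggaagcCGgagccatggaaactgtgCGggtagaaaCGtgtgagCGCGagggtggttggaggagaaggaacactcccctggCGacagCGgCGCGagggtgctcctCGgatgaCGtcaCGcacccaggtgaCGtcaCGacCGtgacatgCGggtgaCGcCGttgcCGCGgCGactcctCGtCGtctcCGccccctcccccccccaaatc

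The Araf stretch held 12 CpG and the Braf stretch 24. Over the whole 300-base promoter, 250 bases before to 50 after the start, the 6 members with an entry had 34 CpG in Hras, 19 in Nras, 14 in Araf, 30 in Braf, 31 in Map2k1 and 28 in Map2k2. The median over all 32851 promoters of this length was 7, with quartiles of 3 and 20. Thus 4 members lay above the upper quartile and Nras and Araf lay below it. CpG was counted by its letters CG, which read the same on both strands, and the count describes sequence only.

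Hras and Nras encode Ras GTPases that differ mainly in their C-terminal region, where lipid anchors are attached. Hras (ENSMUSG00000025499) lies at chr7:141189105-141194005 on the minus strand of mm10, and Nras (ENSMUSG00000027852) at chr3:103058285-103067914 on the plus strand. Hras had 9.18, 12.7, 9.99 and 7.12 normalized CPM in controls 1 to 4 and 8.34, 8.47, 11.8 and 7.36 in knockouts 1 to 4, from 90 to 160 counts. The control range held all 4 knockouts, and the means of 9.76 ± 2.32 and 8.99 ± 1.93 (SD, n = 4 each) differed by a log2 fold change of -0.12 (SE 0.250, edgeR adjusted p = 0.985).

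Nras had 18.9, 17.5, 19.3 and 16.4 normalized CPM in the controls and 28.7, 23.0, 15.4 and 16.1 in the knockouts. Knockouts 1 and 2 lay above every control and knockouts 3 and 4 below every control. The means were 18.0 ± 1.31 and 20.8 ± 6.27 (SD, n = 4 each), so the coefficient of variation was 7.3% in controls and 30.2% in knockouts. The log2 fold change was 0.21 (SE 0.221, edgeR adjusted p = 0.943), and 0.02 without knockout 1 (edgeR adjusted p = 0.995). The count ratio of Hras to Nras in a library depends on no scaling between libraries. It was 0.488, 0.728, 0.520 and 0.436 in the controls and 0.292, 0.368, 0.764 and 0.459 in the knockouts. The log2 ratios overlapped, and their difference of -0.27 had p = 0.429 in a two-sided exact permutation test, 0.643 after adjustment over 3 pairs, where 4 against 4 libraries allow a smallest p of 0.0286. Without 1 library the difference ran from -0.54 (without knockout 3) to -0.07 (without knockout 1). The libraries carry 2 runs of label numbers, called library sets here, with controls 1 and 2 and knockouts 1 and 2 in set 1 and the others in set 2. The difference was -0.86 within set 1 and 0.32 within set 2.

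Araf and Braf encode Raf kinases, the first step of the kinase cascade, and Braf has the higher basal activity towards Mek. Araf (ENSMUSG00000001127) lies at chrX:20797814-20860519 on the plus strand, and Braf (ENSMUSG00000002413) at chr6:39603237-39725463 on the minus strand. Each shares a few exon bases with a gene on the other strand, 9 bases (0.138%) for Araf with Syn1 and 146 bases (1.05%) for Braf with Ndufb2. Since the strand setting of the counting is not given in the sources used here, reads in these stretches are uncertain.

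Araf had 20.2, 26.6, 20.3 and 18.5 normalized CPM in the controls and 14.8, 14.6, 21.8 and 21.5 in the knockouts. Knockouts 1 and 2 lay below every control, and knockouts 3 and 4 lay within the control range. The means of 21.4 ± 3.56 and 18.2 ± 4.01 (SD, n = 4 each) gave a log2 fold change of -0.24 (SE 0.208, edgeR adjusted p = 0.917). Araf is X-linked. With summed RNA of 4 Y-linked genes as a covariate its log2 fold change was -0.15 (edgeR adjusted p = 0.992).

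Braf had 8.05, 6.77, 12.8 and 11.8 normalized CPM in the controls and 14.1, 9.10, 5.54 and 8.27 in the knockouts. It varied most of the 7 genes, with a coefficient of variation of 29.4% in controls and 38.7% in knockouts and a 2.55-fold distance between its highest and lowest library, with 47 counts in its lowest library. Knockout 1 was the highest and knockout 3 the lowest of all 8 libraries. The means of 9.85 ± 2.90 and 9.26 ± 3.58 (SD, n = 4 each) gave a log2 fold change of -0.08 (SE 0.314, edgeR adjusted p = 0.995).

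The count ratio of Araf to Braf was 2.50, 3.91, 1.58 and 1.57 in controls 1 to 4 and 1.05, 1.599, 3.91 and 2.59 in knockouts 1 to 4. The groups overlapped, and the difference of the mean log2 ratios was -0.13 (p = 0.971 in the two-sided exact permutation test, 0.971 after adjustment over 3 pairs). The sign changed without control 2 (0.14) and without knockout 1 (0.19). Within set 1 both knockouts lay below both controls in this ratio, with a log2 difference of -1.27, and within set 2 both lay above, with 1.01. These within-set values, of 2 against 2 libraries, were not tested. A difference in this ratio would not tell which of Araf and Braf moved.

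**Figure D3:**
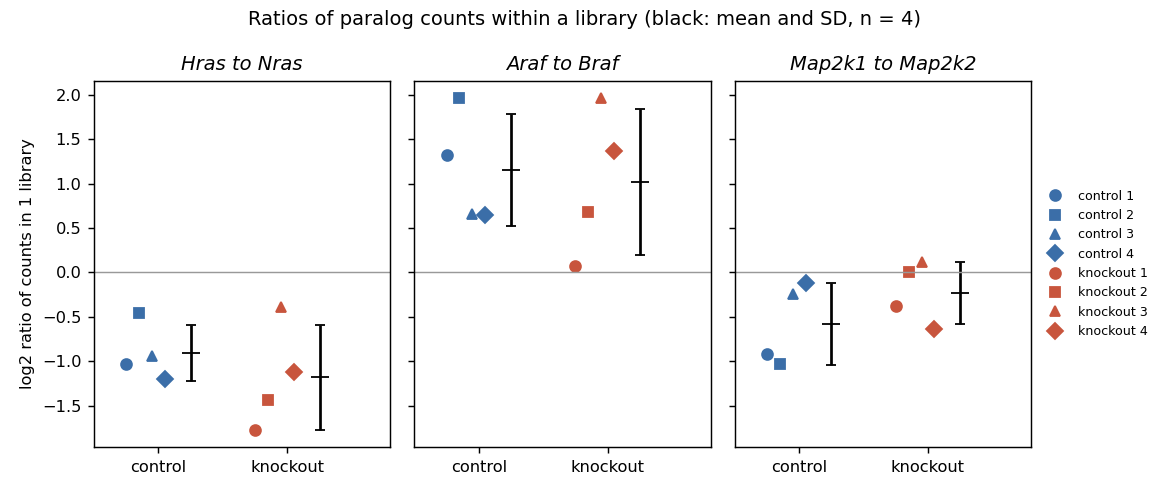
Count ratio of Hras to Nras, Araf to Braf and Map2k1 to Map2k2 within each library, as log2, with the mean and SD of each group (n = 4) in black. The groups overlap in all 3 pairs, and for Araf to Braf knockouts 1 and 2 lie below controls 1 and 2 whereas knockouts 3 and 4 lie above controls 3 and 4.

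Map2k1 and Map2k2 encode Mek1 and Mek2, dual-specificity kinases whose known substrates are the Erk kinases. Map2k1 (ENSMUSG00000004936) lies at chr9:64185770-64253631 on the minus strand, 19.3 Mb from Kmt2a on the same chromosome, and Map2k2 (ENSMUSG00000035027) at chr10:81105915-81133975 on the plus strand. Map2k1 had 14.9, 13.4, 19.4 and 17.7 normalized CPM in the controls and 18.6, 23.0, 24.2 and 14.8 in the knockouts. Knockouts 2 and 3 lay above every control. The means of 16.3 ± 2.70 and 20.2 ± 4.30 (SD, n = 4 each) gave the largest log2 fold change of the 7 genes, 0.30 (SE 0.211, edgeR adjusted p = 0.889), with an interval of the fold from 0.895 to 1.70.

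Map2k2 had 28.3, 27.4, 23.0 and 19.2 normalized CPM in the controls and 24.3, 23.0, 22.3 and 23.1 in the knockouts. All 4 knockouts lay inside the control range and close together, with a coefficient of variation of 3.65% against 17.1% in the controls. The means of 24.5 ± 4.19 and 23.2 ± 0.845 (SD, n = 4 each) gave a log2 fold change of -0.08 (SE 0.172, edgeR adjusted p = 0.985). The count ratio of Map2k1 to Map2k2 ranged from 0.489 to 0.922 in controls and from 0.642 to 1.08 in knockouts. Its mean log2 was -0.58 ± 0.46 in controls and -0.23 ± 0.35 in knockouts (SD, n = 4 each), a difference of 0.35 with p = 0.257 in the two-sided exact permutation test and 0.643 after adjustment. The difference ran from 0.20 (without control 2) to 0.51 (without control 4) with 1 library left out, and was 0.79 within set 1 and -0.08 within set 2.

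Mapk3 encodes Erk1, a kinase at the end of the cascade that phosphorylates many nuclear and cytoplasmic targets. It (ENSMUSG00000063065) lies at chr7:126759601-126765819 on the plus strand, and like the Ras and Mek members shares no exon bases with another gene. Mapk3 had 38.6, 39.0, 29.8 and 29.4 normalized CPM in the controls and 28.5, 27.9, 41.4 and 28.7 in the knockouts. Knockouts 1, 2 and 4 lay below every control, whereas knockout 3 was the highest of all 8 libraries. The means of 34.2 ± 5.33 and 31.6 ± 6.51 (SD, n = 4 each) gave a log2 fold change of -0.12 (SE 0.190, edgeR adjusted p = 0.974). Without knockout 3 the knockout mean was 28.4 ± 0.376 (SD, n = 3) and the log2 fold change -0.27 (edgeR adjusted p = 0.575). Without knockout 3, Mapk3 was the only member whose groups did not overlap, 1 of 7, where 11% of all genes tested did not overlap. Its log2 fold change was closer to 0 without control 1 or control 2 (-0.05 each) and without knockout 1, 2 or 4 (-0.07, -0.06 and -0.07). In plain CPM, without TMM factors, knockout 3 had 26.1, below the 34.7 to 37.2 of the other knockouts and within the control range of 24.4 to 44.2.

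The library of knockout 3 was the highest knockout for Hras, Araf, Map2k1 and Mapk3 and the lowest for Nras, Braf and Map2k2 in normalized CPM. In plain CPM it was the lowest of all 8 libraries for 4 members, among them Nras (9.73 against 19.5 to 36.6 in the other knockouts) and Braf (3.49 against 10.0 to 18.0). That scaling moved the median log2 fold change of all genes to 0.25 from 0.01. Without this library 0 of 7 members were called, against 1.08% of all genes tested, and the log2 fold changes ran from -0.34 for Araf to 0.32 for Nras (edgeR adjusted p = 0.577 and 0.595). Braf then had 0.09 in place of -0.08.

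The genotypes were also compared within each library set. In set 1 no member overlapped between genotypes, 7 of 7, where 44.1% of all genes tested did not overlap. There Nras had 25.8 normalized CPM in knockouts against 18.2 in controls (mean of 2 each), Braf 11.6 against 7.41 and Map2k1 20.8 against 14.1. Hras, Araf, Map2k2 and Mapk3 were lower, the last with 28.2 against 38.8. In set 2, 3 of 7 did not overlap (Nras, Araf and Braf), against 33.7% of all genes tested. Map2k1 was the only member with the same sign in both sets, with log2 ratios of 0.56 and 0.07.

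An edgeR fit with the interaction of genotype and library set, chosen after the data were seen, tested the difference between the sets. The log2 fold change in set 2 minus that in set 1 was -1.47 (SE 0.485) for Braf, 0.83 (SE 0.332) for Araf, 0.70 (SE 0.321) for Mapk3 and -0.68 (SE 0.332) for Nras. None passed adjustment, with a lowest adjusted p of 0.867 over the members. Araf and Braf, 2 of 7, had an unadjusted p under 0.05, against 5.4% of all genes tested, and 0% of all genes passed at an adjusted p of 0.05. What the sets differ in beyond their label numbers is not given in the sources used here.

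Per length, Mapk3 had the highest level of the 7 and Braf the lowest. In normalized CPM per kb of exon bases the means over 8 libraries were 14.6 ± 2.52 for Mapk3, 5.38 ± 1.15 for Map2k1, 4.21 ± 0.509 for Map2k2, 3.64 ± 0.835 for Nras, 3.02 ± 0.597 for Araf, 2.51 ± 0.541 for Hras and 0.689 ± 0.219 for Braf (SD). The ranges of Mapk3 (12.4 to 18.3) and Map2k1 (3.94 to 7.12) did not overlap, and neither did those of Hras (1.91 to 3.41) and Braf (0.400 to 1.02). The neighbours from Map2k1 to Hras overlapped and stood in this order in 5 to 7 of 8 libraries. Among the 13439 genes tested, Mapk3 lay at percentile 92.3 and Braf at 27.4 of the level per kb.

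The length used decides much of this order, since Braf has 13862 exon bases and Mapk3 2257. Divided by the longest transcript, Mapk3 remained first with 18.3 and Braf last with 0.982 normalized CPM per kb, and 3 of 7 kept their rank. By coding length, Nras was first with 32.7, ahead of Mapk3 with 26.9, and Braf last with 3.78, its rank the 1 kept. Braf was thus the lowest by each of the 3 lengths.

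**Figure D4:**
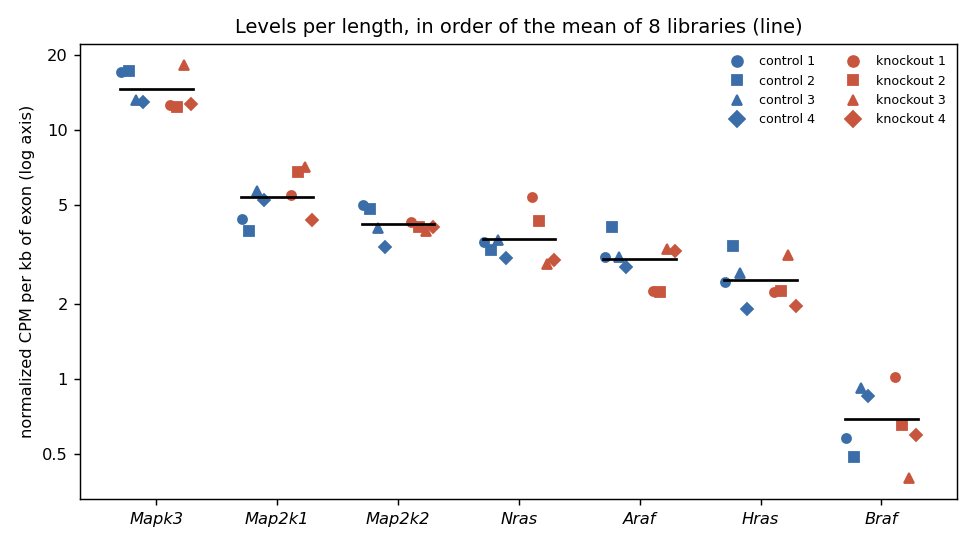
Level of each core gene in normalized CPM per kb of exon bases in the 8 libraries, on a log axis, with a line at the mean. Mapk3 stands above and Braf below the other 5 genes, whose points overlap with their neighbours.

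The other genes of the pathway were taken from 8 lists of 122 genes, of which 102 passed the filter. None was called in the edgeR fit, 0 of 102 against 0.186% of all genes, and 7 of 102 (6.86%) had an unadjusted p under 0.05, against 6.88% of all genes tested. The groups did not overlap for 3 of 102 (2.94%), against 4.52%. Their median log2 fold change was 0.07, beside 0.01 for all genes, and 56 of 102 were higher in the knockouts, beside 50.9% of all genes. DESeq2 called 1 of 102 and limma-voom called 2, beside the 1.03% and 0.752% of all genes tested.

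Upstream of Ras, 9 of 15 exchange factors and adaptors were tested and 3 had higher means in the knockouts. Gab1, a docking adaptor of receptor tyrosine kinases, had 3.33 ± 1.16 normalized CPM in controls and 7.01 ± 3.68 in knockouts (SD, n = 4 each), with all 4 knockouts above all controls (log2 fold change 1.05, SE 0.392, edgeR adjusted p = 0.589). Rasgrf2, a Ras exchange factor, had the lowest log2 fold change, -0.86 (edgeR adjusted p = 0.737). Grb2, the adaptor that brings Sos to receptors, had the highest level per kb and similar means of 8.83 ± 0.561 and 8.52 ± 1.46. Of the GTPase-activating proteins that switch Ras off, 7 of 10 were tested and 4 had higher means, from -0.58 for Rasa3 to 0.50 for Dab2ip on the log2 scale (edgeR adjusted p = 0.960 and 0.797). Rasa1 had the highest level per kb of them and a log2 fold change of 0.20 (edgeR adjusted p = 0.935).

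Other Ras subfamily GTPases numbered 12 tested of 14, with 8 higher. Rala had their highest level per kb and means of 35.6 ± 6.49 and 34.9 ± 4.37 normalized CPM (SD, n = 4 each), and the log2 fold changes ran from -0.59 for Mras to 0.88 for Rras (edgeR adjusted p = 0.960 and 0.797). All 10 genes of Ras processing and trafficking were tested, most of them enzymes that act on its lipid anchors or tail, with 7 higher. Pggt1b, a subunit of a prenyl transferase, had 3.79 ± 1.14 and 8.73 ± 5.58 normalized CPM with overlapping groups (log2 fold change 1.19, SE 0.421, edgeR adjusted p = 0.540). Zdhhc9, a palmitoyltransferase of Ras, had -0.40, and Lypla1, a thioesterase, -0.34 (edgeR adjusted p = 0.881 and 0.817).

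Scaffolds and chaperones of Raf, Mek and Erk numbered 19 tested of 20, with 10 higher, none with an unadjusted p under 0.05 in edgeR and a median log2 fold change of 0.01. Hsp90ab1, the chaperone that holds Raf kinases in an active form, was their most abundant gene per kb with 279 ± 26.1 and 325.7 ± 31.8 normalized CPM (SD, n = 4 each; log2 fold change 0.22, edgeR adjusted p = 0.906). Its kinase co-chaperone Cdc37 had 0.43 and the scaffold Cnksr1 -0.27 (edgeR adjusted p = 0.826 and 0.987).

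Downstream of Erk, 11 of 14 kinases and transcription factors were tested and 6 had higher means. Elk4, an Ets factor of the ternary complex, had all 4 knockouts above all controls (log2 fold change 0.55, SE 0.213, edgeR adjusted p = 0.627). Ets2 had the highest level per kb and 0.36, and the ribosomal S6 kinases Rps6ka4 and Rps6ka1 had 0.88 and -0.39 (edgeR adjusted p = 0.853 and 0.788). In the parallel Jnk, p38 and Erk5 cascades, 7 of 21 tested kinases had higher means, from -0.70 for Map3k4 to 0.92 for Map3k5 (edgeR adjusted p = 0.917 and 0.638), and Mapk13, a p38 kinase, had the highest level per kb with a log2 fold change of 0.15 (edgeR adjusted p = 0.985).

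The feedback inhibitors of Mapk signalling and Etv factors are transcribed when Erk is active in many cells. This list had the highest median log2 fold change of the 8 lists, 0.45. Of its genes, 11 of 13 were higher, beside 50.9% of all genes tested. An unadjusted p under 0.05 in edgeR was reached by 3 of 13, beside 6.88%. The lists were chosen with earlier results of these data known, so these shares only describe the list. Spred1, an inhibitor of Raf activation by Ras, ranged from 1.95 to 2.70 normalized CPM in controls and from 4.38 to 11.1 in knockouts. Its groups did not overlap, yet the log2 fold change of 1.65 (SE 0.362) did not pass in edgeR (adjusted p = 0.161). Spred1 passed with DESeq2 (1.65, adjusted p = 0.00407), with limma-voom (1.79, adjusted p = 0.0378), without a filter on low counts (edgeR adjusted p = 0.00397, where 0.783% of all genes passed) and without knockout 3 (1.80, edgeR adjusted p = 0.0238). In the other 15 alternatives it did not pass, with adjusted p from 0.128 to 0.540, among them the Y-linked covariate (1.30, edgeR adjusted p = 0.540), the library set as a block (1.56, edgeR adjusted p = 0.190) and the fits without any other single library (edgeR adjusted p from 0.150 to 0.479). Phlda1, which passed with limma-voom and without knockout 3, had 44.6 ± 1.80 and 70.8 ± 25.1 normalized CPM (SD, n = 4 each; log2 fold change 0.67, SE 0.241, edgeR adjusted p = 0.564). Etv5 had 1.34 (SE 0.590, edgeR adjusted p = 0.686), while Etv1 had -1.41 (SE 0.760, edgeR adjusted p = 0.810).

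**Figure D5:**
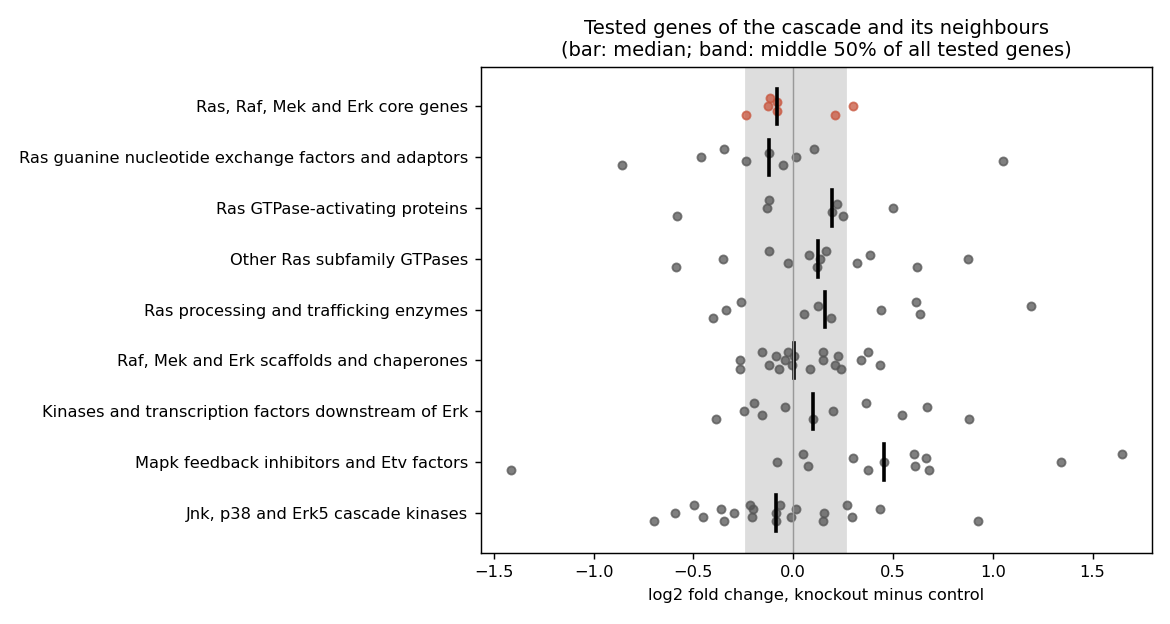
Log2 fold change of each tested gene in the 8 pathway lists, below the core genes (red), with a bar at each median and a band over the middle 50% of all genes tested. The core genes lie between -0.24 and 0.30, and the feedback list has the highest median (0.45).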

How the data were processed

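RNA of 8 sorted Paneth cell samples was analysed, 4 controls and 4 knockouts, with groups taken from the genotype labels. Replicates were numbered in accession order and pair no samples. The authors aligned reads with GSNAP to mm10 and counted unique reads per gene with featureCounts 1.6.3 on Ensembl gene models after bcl2fastq 2.19.1. The deposited values are raw counts per gene, without normalization. The 92 spike-in rows were left out. Symbols matched 53620 of 53801 identifiers. Total counts of 13037832 to 14380240 per library make 3 counts worth 0.173 to 0.353 normalized CPM.

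In R 4.3.3, TMM factors, dispersions and robust quasi-likelihood fits were computed with edgeR 4.0.16 for the 13439 genes passing filterByExpr (minimum count 10, minimum total 15), with p-values adjusted by Benjamini-Hochberg over all of them. Each standard error was derived from the fold change and its F statistic. Alternatives used DESeq2 1.42.0, limma 3.58.1 (voom with quality weights), other scalings, filters and covariates, and fits without each library. The edgeR fit was tested on simulated data. Paralog count ratios (pseudocount 0.5) were compared by exact permutation. Exon lengths per gene came with the deposited counts. Longest-transcript and coding lengths came from GENCODE M21, and promoters from RefSeq.

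The members and lists were chosen with earlier results of these data known. In each pathway list the tested genes with the highest and lowest log2 fold change and the highest level per kb were named, and genes past both cutoffs or an adjusted p of 0.1. Elk4 and Etv5 were named after their values were seen. For each member the 2 genes of most similar profile were named. No 2 libraries were closer than sampling noise, with a smallest chi-square per degree of freedom of 12.1.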

Additional observations from a re-analysis of the deposited data

Results flagged for a closer look

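Mapk3 in knockout 3 was far from the other knockouts. Its 41.4 normalized CPM stood above 27.9, 28.5 and 28.7, and the gap to the nearest took 0.946 of the range of the 4 knockouts, past Dixon's 95% critical value for 4 samples. Among 20 groups of 4 libraries examined, this was the 1 past that value, and chance alone flags about 1 in 20. The same library had the lowest TMM factor (0.6316) and the fewest detected genes, and in plain CPM it was below the other knockouts for this gene (26.1 against 34.7 to 37.2). The part of the scaling in this value was not tested further.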

How the results depend on the processing

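No member was called under any of 19 alternative fits, and of 133 member values 123 kept their direction. Nras, Araf and Map2k1 kept it in all, though not the size: Nras (0.21) was 0.03 with the Y-linked covariate, 0.51 without TMM factors and 0.02 to 0.32 without 1 library, Araf (-0.24) was -0.15, -0.04 and -0.34 to -0.12, and Map2k1 (0.30) was 0.16, 0.53 and 0.20 to 0.42. Limma-voom with quality weights gave 0.36 for Nras, -0.38 for Araf, -0.0030 for Map2k2 (-0.08 in the main test) and -0.20 for Mapk3 (-0.12). The Y-linked covariate gave -0.25 for Braf (-0.08) and -0.07 for Mapk3, and upper-quartile factors gave -0.12 for Map2k2. With library totals without TMM factors, chosen after seeing the data, Hras (0.0663), Braf (0.2701), Map2k2 (0.1566) and Mapk3 (0.0483) turned positive, and Braf did so with limma-voom (0.0855). Leaving out 1 library gave -0.2781 to 0.0256 for Hras (positive without control 2), -0.3473 to 0.0916 for Braf (0.0663 without control 3, 0.0154 without control 4, 0.0916 without knockout 3) -0.18 to 0.0012 for Map2k2 (positive without control 1) and -0.27 to -0.05 for Mapk3. The lowest adjusted p was 0.428, for Araf with limma-voom. The log2 difference of the Araf to Braf ratio ran from -0.44 to 0.19 without 1 library (0.14 without control 2) and was -1.27 and 1.01 within the sets. Ranks per length were kept by 3 members (longest transcript) or 1 (coding length). Genes called over the table, 25, became 290 without a filter, 13 with at least 10 counts in every library, 15 without TMM factors, 10 with the Y-linked covariate, 138 with DESeq2, 101 with limma-voom and 38 at a 10% false discovery rate without a fold limit. They ran from 10 (without control 3) to 152 (without knockout 3) with 1 library left out, also 11 without control 1, 12 without control 2, 15 without control 4 and 11 without knockout 2. The cause was not tested. No paired analysis was possible because the labels tie no control to a knockout by litter: the methods call the mice littermates without saying which share a litter, and the 1 animal number that recurs was not used. With 4 mice per group, the 95% interval of the fold ran from 0.729 to 1.23 for Map2k2, the narrowest, and from 0.589 to 1.52 for Braf, the widest.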

Other observations

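Genes with a profile like that of each member were sought over the 8 libraries, by the root mean square difference of centred log2 normalized CPM among 4339 or 4340 genes (depending on the member's own level) with a mean of at least 10 normalized CPM. These values describe 8 libraries that share scaling factors. Closest to Mapk3 were Zbtb7a (0.064) and Pdxdc1 (0.0691), beside a spread of 0.219 of Mapk3 itself. Map2k1 was followed by Rasa2 (0.0891), a GTPase-activating protein of Ras, and Ostc (0.107), and Map2k2 by Srek1ip1 (0.0806) and Pa2g4 (0.0864). Closest to Araf were Cisd3 (0.0855) and 2610507B11Rik (0.0875), and to Braf Ubr1 (0.138) and Nr1d2 (0.149). Hras was nearest to 4930532G15Rik (0.108) and Mrpl54 (0.113), and Nras to Cnot6 (0.114) and Cttn (0.118).

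Among the members themselves the smallest difference was between Hras and Mapk3 (0.16). Araf and Map2k2 were also nearest to Mapk3 (0.194 and 0.196). For Map2k2 this difference exceeded its own spread of 0.157. The nearest members of Nras (Map2k2, 0.28) and of Map2k1 (Nras, 0.342) also lay beyond their own spreads of 0.269 and 0.272. Braf was nearest to Nras (0.311) and not to its paralog Araf.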
